A study of Rattus norvegicus with 12 samples.

Results

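The early response of a vein to arterial grafting was described from 6 of 12 single-colour arrays: the 3 arrays labelled 7 days after surgery and the 3 labelled day 0. The day 7 vessels came from male rats (Rattus norvegicus) whose external jugular vein served as a bypass graft of the carotid artery, and the day 0 vessels were vein from male rats that had no operation. The labels give no strain, age, transgene or drug for either group, name the tissue only as vein, and do not say how many animals gave each RNA. The other 6 arrays, 3 from grafts at day 14 and 3 from grafts at day 28, shared the estimate of spread and served where day 7 was set against later grafts. Nothing in the labels says that the arrays of a day were separate animals, so the p-values speak only of the spread among these samples, and that spread may be technical.

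A vein wall has an inner endothelium, a thin layer of contractile smooth muscle and an outer coat of fibroblasts, fat and nerve. Moved into an artery, it meets higher pressure, pulsatile stretch and the injury of surgery, and blood cells attach to and enter it. Smooth muscle cells can leave their contractile state for one that divides and makes matrix, a change known as phenotypic switching, and the thickening of the inner layer that follows is called neointima. In bulk tissue, fewer cells of a type and less RNA per cell cannot be told apart.

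Levels are log2 of the background-corrected brightness of a probe minus the 75th percentile of all gene spots on the same array, so that 0 is that percentile and each unit is a doubling. Probes differ in how they bind, so levels are set side by side only for 1 probe. Changes are day 7 minus day 0 on that log2 scale, ± the standard error of the limma fit, and a change was called at an adjusted p under 0.05 over 24684 probes. At that threshold 6823 probes (27.6%) were called, 3571 higher and 3252 lower, and 9672 had an unadjusted p under 0.05. Among the 13903 genes that a probe stood for, 2369 were called higher (17.0%) and 1938 lower (13.9%), and the median change was -0.07. These shares are the background for every count of a gene list against day 0 in the main fit. Counts from other fits, mostly in parentheses, have other backgrounds. Where no array of a group had a probe well above background, its level there is a bound, and the difference is given as "at least N-fold". Of the genes called below, Ackr2, Fzd4, Ntn1 and Pde3a on 2 of 3 day 7 arrays and Ntf3 and Pdk4 on 1 of 3 were well above background, and the others on all 3, apart from those given a bound. Likewise Apoc1, Ccl3, Ccna2, Ccr2, Cenpa, Cx3cr1, Dio3, Klf5, Mmp3, Tlr2, Tnf and Trpc6 on 2 of 3 day 0 arrays and Ccl20, Cd79b, Fosl1, Gzmb, Mmp8, Sema7a and Vegfd on 1 of 3 were well above background.

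The arrays of a day were not equally alike. Every label carries the same replicate number, so the numbers used here follow the order in which the samples are listed. Equal numbers link no arrays across days. Of probes well above background on both arrays, 251 of 20214 lay over 2-fold apart between day 7 replicates 1 and 2, whereas 3063 and 4387 did between day 7 replicate 3 and each of those. The 3 day 0 arrays had between 2783 and 5502 such probes per pair. Replicate 3 of each day stood apart, with 393 non-uniform spots at day 7 and 460 at day 0 against 2 to 11 on the other 10 arrays. Both of these arrays were over 4-fold brighter than the mean of the other arrays of their day at 360 probes. Of these, 195 were the probe that stood for a gene, and 3 of the 360 were called. Among listed genes these include Cd3g, Cdk1, Cry1, Smtn and Tpsb2, which are given no value here. At 140 probes both arrays were over 4-fold dimmer than that mean. Over all probes the deviations of the 2 arrays correlated at r = 0.44. No scan held both day 7 and day 0 arrays: the 3 day 7 arrays were scanned with 1 day 14 array, and 2 day 0 arrays with 1 day 28 array. With the scan as a fixed block, which links the days only through those shared arrays, 47 probes were called, and the part of the scan in any change was not tested further. Each list and named gene was also fitted without replicate 3 of both days, with the scan as a random block, with normexp, which corrects the background in another way, and with only the 6 compared arrays. Over all probes normexp called 2634 (1613 higher) and the 6 arrays alone 2654 (1494 higher), so that list counts under these 2 have lower backgrounds. In what follows, parentheses after a list's count of 3 or more give it where one of these moved it by over 1.5 times, and the calls of named genes that an alternative ended close a paragraph, with the change found there where it differs.

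**Figure D1:**
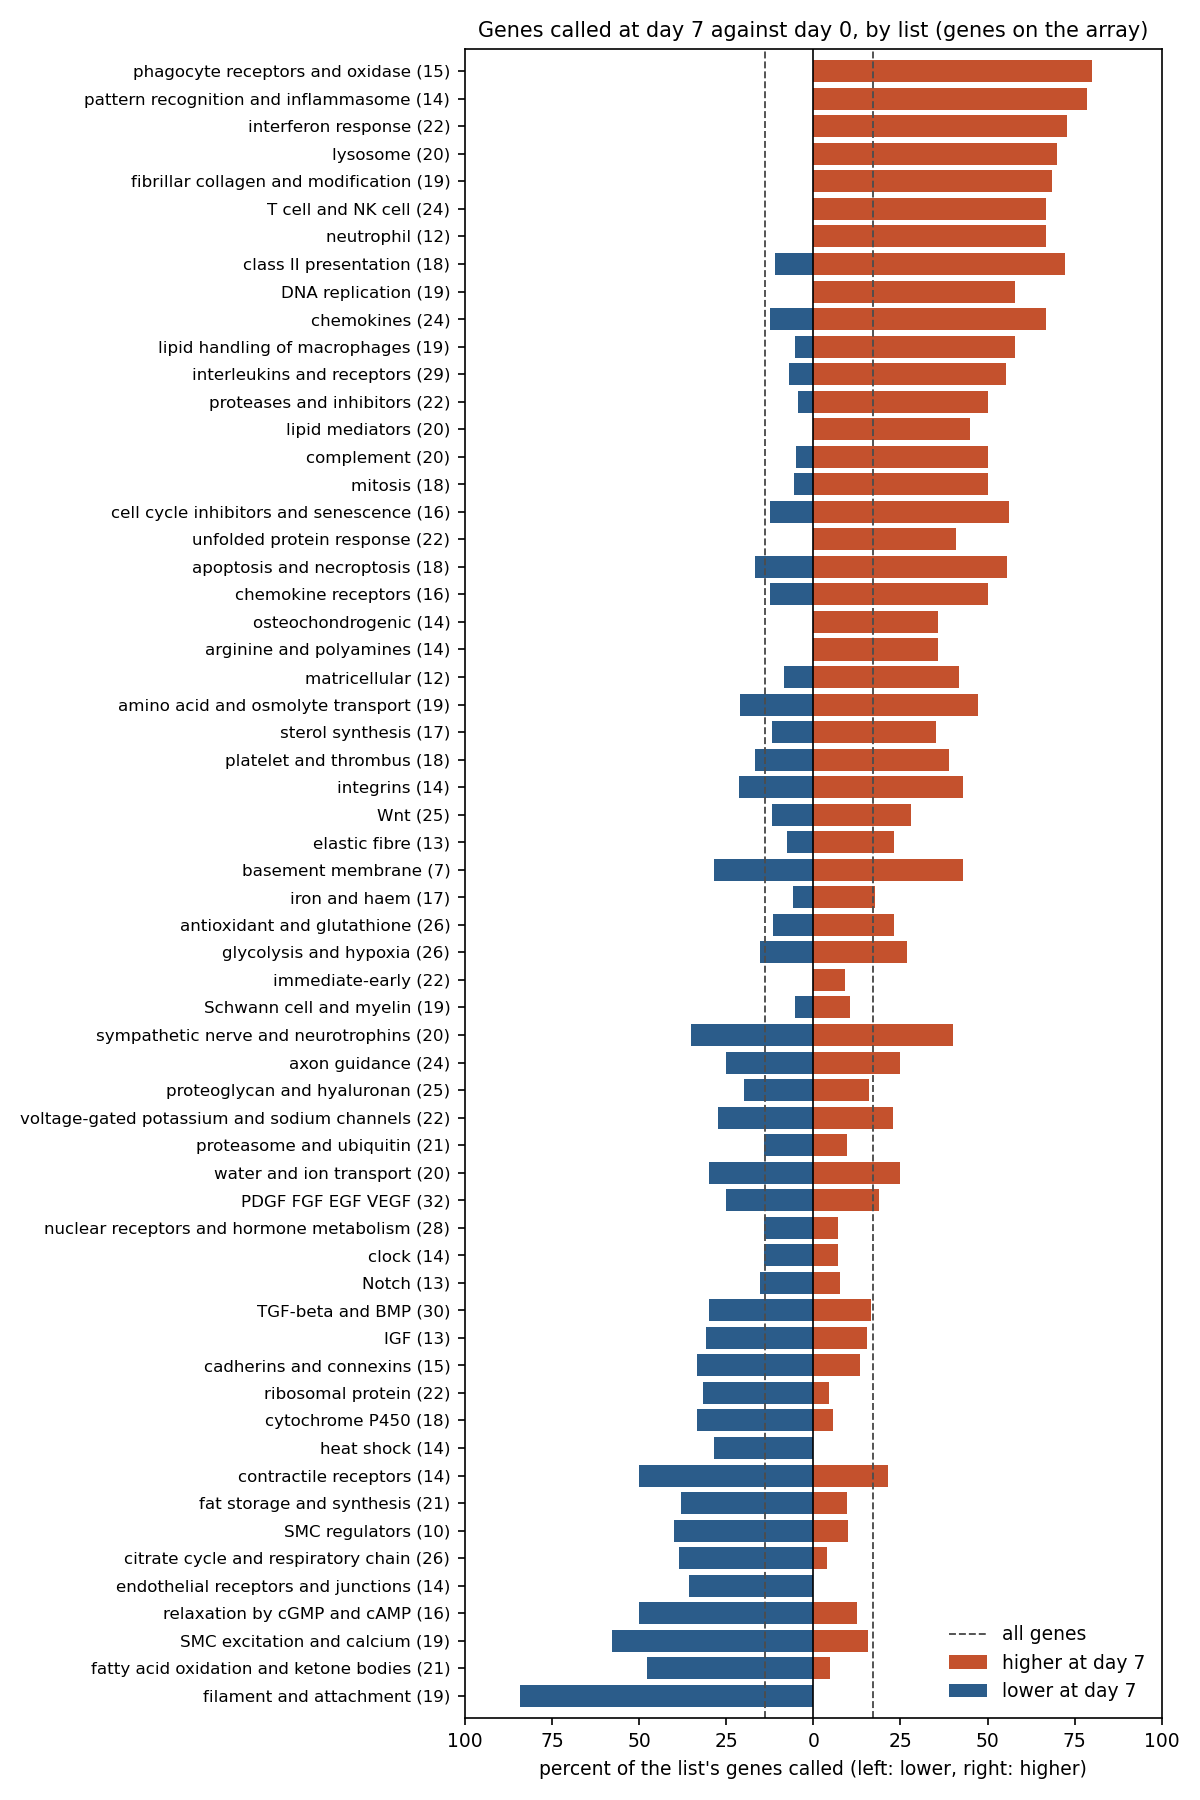
Share of genes called higher (right) and lower (left) at day 7 against day 0 in each of 60 gene lists, as a percent of the list's genes on the array. Dashed lines mark the background over all 13903 genes, 17.0% higher and 13.9% lower. Lists of phagocytes, pattern recognition, interferon response and class II presentation lie far to the right, and filament and attachment, muscle excitation and cGMP signalling far to the left.

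The labelled tissue carried the markers of a vessel wall. Of 7 contractile smooth muscle markers 5 were measured under their own symbol, and their summed level ran from 7.22 to 7.78 at day 7, against 9.39 to 10.11 at day 0. Acta2 and Myh11 are not among the genes matched here. Smtn, over 4-fold brighter on replicate 3 of both days, is 1 of the 5 and enters these sums. The 6 macrophage markers summed to between 6.08 and 7.24 at day 7, against 3.12 to 5.52 at day 0. The 4 fat cell markers moved the other way, with sums from -3.02 to -1.90 at day 7, against 3.65 to 4.79 at day 0. Of the 6 skeletal muscle markers none was called, and their sums overlapped, from 3.63 to 3.69 at day 7, against 3.52 to 3.83 at day 0. Of 3 mesothelial markers on the array 2 were higher and 1 was lower. Their sums overlapped, from 2.69 to 4.24 at day 7, against 2.34 to 3.31 at day 0. Of the 2 that rose, the transcription factor Wt1 was at least 46.9-fold higher. The part of fat and other tissue around the vessel in the changes below was not tested.

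Some transcription factors that hold smooth muscle in its contractile state were lower in the graft. Myocd, myocardin, the coactivator that drives contractile genes together with Srf, read -1.45, -0.94 and -5.58 on the day 7 arrays, against 1.26, 1.32 and 1.47 on the day 0 arrays. The groups did not overlap, and day 7 replicate 3 lay far below the other day 7 arrays. Myocd fell by 4.01 ± 1.0 (adjusted p = 0.0131), or by 2.55 without day 7 replicate 3. Srf itself, serum response factor, read 2.38, 2.54 and 1.57 on the day 7 arrays, against 3.72, 3.69 and 3.28 on the day 0 arrays, which again left a gap between the groups, and fell by 1.40 ± 0.25 (adjusted p = 0.00255). Tbx18, a factor of the embryonic lineage of mural cells, fell by 1.09 ± 0.18. Klf5, a zinc finger factor of dividing and remodelling smooth muscle, rose by 2.03 ± 0.52, or by 1.84 with no call without day 0 replicate 2. Of the 10 such regulators on the array 4 were lower (1 with only the 6 arrays) and 1 was higher, with a median change of -0.98. Klf4 (-0.37 ± 0.50) and Gata6 (-0.89 ± 0.41) did not pass. Myocd and Srf lost their calls with only the 6 arrays, Klf5 (1.33) with normexp, and Klf5 (1.73) without replicate 3 of both days.

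Genes of the muscle filaments and their attachments fell as a group. Of 19 genes for thin filaments, dense bodies, caveolae and the dystrophin complex on the array, 16 were lower and 0 were higher (median -2.54), and the count of lower genes was 16 without replicate 3 of both days. Cnn1, calponin, which binds actin and restrains myosin, read 4.17, 4.51 and 1.90 on the day 7 arrays, against 7.27, 7.92 and 7.83 on the day 0 arrays. Every day 7 array lay below every day 0 array, by at least 2.76 units, and Cnn1 fell by 4.15 ± 0.61 (adjusted p = 0.00079). Des, the intermediate filament protein desmin, varied little within a group, at 4.26, 4.27 and 4.19 at day 7 and 7.63, 8.15 and 7.96 at day 0, and fell by 3.67 ± 0.28 (adjusted p = 1.8e-05). Pdlim3, which anchors alpha-actinin, fell by 4.90 ± 0.78. Dmd, dystrophin, which ties actin to the membrane, fell by 3.80 ± 0.44. The caveola genes Cavin2 (-3.75 ± 0.27), Cavin1 (-2.50 ± 0.64), Cav2 (-1.82 ± 0.23) and Cav1 (-1.59 ± 0.17) fell with them. Cavin1 (-0.96) lost its call with normexp, and Cavin1 with only the 6 arrays.

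The binding sequence of Srf, the CArG box, was looked for in the 250 bases before the start of each gene in the RefSeq promoter table (rat build GRCr8), on both strands. It was found in 1.14% of the 11358 array genes that have a promoter there, and 35 of those 130 genes were called, 11 higher and 24 lower. Among the lists on muscle it stood before Srf (in 2 copies), Dmd and Ldb3, which fell, and before Acta1 and Myh4 of the skeletal muscle markers, which did not pass, at -0.95 ± 1.18 and 0.29 ± 1.62. Of the filament and attachment genes 14 had a promoter there and 2 of them had the box. Of the smooth muscle regulators 8 had a promoter and 1 had the box. Among 14 immediate-early genes with a promoter it stood before 5: Egr1, Egr2, Klf6, Dusp5 and Zfp36. The windows before 3 genes that fell and before Egr1, whose change of -0.52 ± 0.62 (adjusted p = 0.571) was no call, are printed with the box in capitals, 5′ to 3′ on the gene's strand. Dmd has 3 starts in the table, of which the one listed first is shown. Ldb3, a Z-band protein of muscle, fell by 3.32 ± 1.02, and this call was lost without any 1 of day 7 replicates 1, 2 and 3 (-3.23, -3.37 and -3.35) or day 0 replicates 2 and 3 (-3.27 and -3.07). A match is a description of the letters and says nothing of whether Srf was bound. Ldb3 (-1.23) lost its call with normexp, Ldb3 (-3.29) with the scan as a random block, Ldb3 (-3.39) with array weights, and Ldb3 (-3.10) without replicate 3 of both days.
Srf, plus strand, chr9:21923975-21924024: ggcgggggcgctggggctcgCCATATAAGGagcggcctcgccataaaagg
Dmd, plus strand, chrX:51205968-51206017: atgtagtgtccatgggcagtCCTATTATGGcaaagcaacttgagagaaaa
Ldb3, minus strand, chr16:9924702-9924751: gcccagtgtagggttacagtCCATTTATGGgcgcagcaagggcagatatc
Egr1, plus strand, chr18:26736953-26737002: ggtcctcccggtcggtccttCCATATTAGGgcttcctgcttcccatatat

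Channels and receptors that set the tone of the muscle did not move as one. Of 19 genes of excitation and calcium, 11 were lower and 3 were higher (1 with only the 6 arrays). Cacna1h, a T-type calcium channel, read -3.44, -3.45 and -3.65 on the day 7 arrays, against 0.51, 1.46 and 1.44 on the day 0 arrays. Both groups were tight and lay 3.95 units apart at their closest, and Cacna1h fell by 4.65 ± 0.29 (adjusted p = 7.08e-06). Abcc9, the sulfonylurea receptor of the ATP-sensitive potassium channel, fell by 3.68 ± 0.21, and Kcnmb1, the beta subunit that makes the large potassium channel sensitive to calcium in muscle, fell by 3.13 ± 0.48. Trpc6, a receptor-operated cation channel, went the other way, at -1.42, -1.26 and -2.32 at day 7 and -3.19, -3.99 and -5.87 at day 0, and rose by 2.68 ± 0.57 (adjusted p = 0.00592). The ATP-gated channel gene P2rx1 (2.10 ± 0.48) rose as well. The pore subunit of the large potassium channel, Kcnma1, did not pass at -1.68 ± 1.25 (adjusted p = 0.34). Trpc6 lost its call with only the 6 arrays, and P2rx1 (1.63) without replicate 3 of both days.

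**Figure D2:**
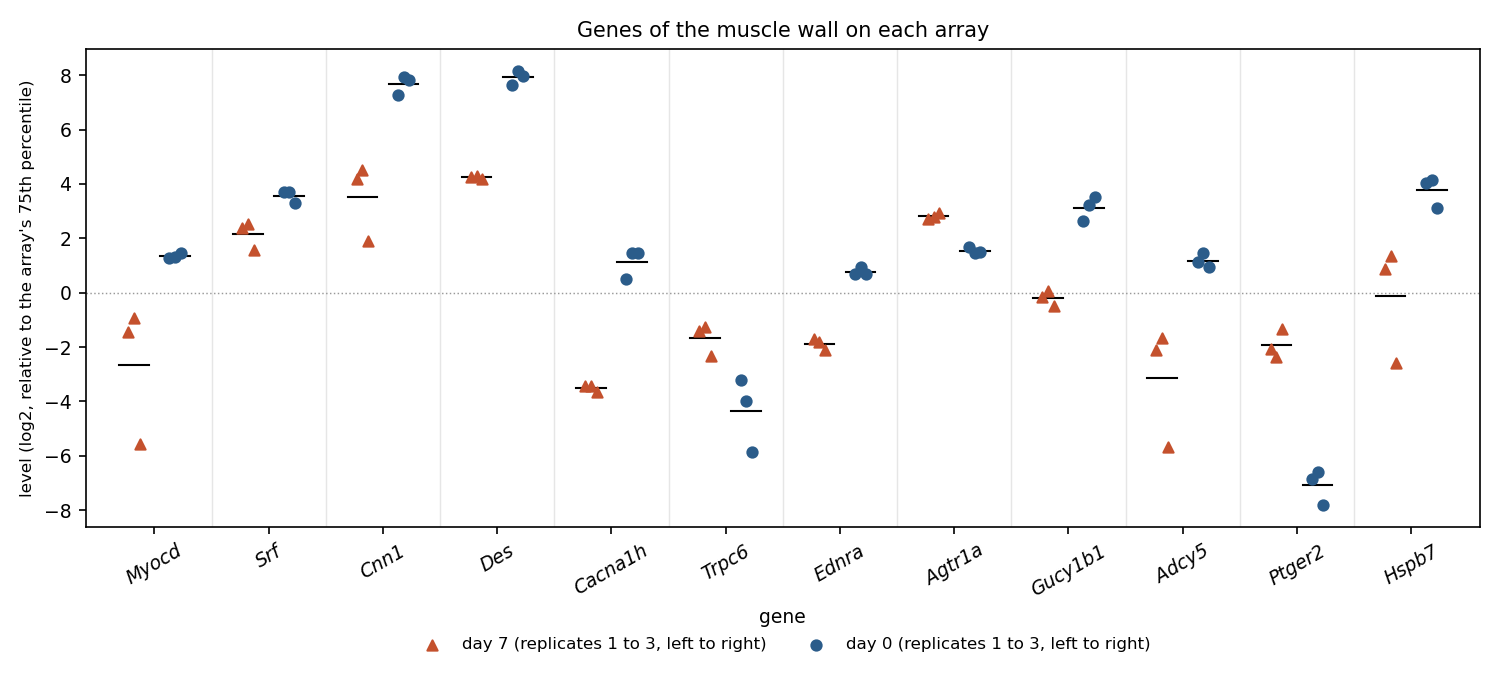
Level of 12 genes of the muscle wall on each array, day 7 at the left (triangles) and day 0 at the right (circles) of each column, on a log2 scale where 0 is the 75th percentile of the array. Horizontal bars are group means of 3 arrays. In Myocd, Cnn1, Adcy5 and Hspb7 the lowest day 7 point is replicate 3, and Trpc6, Agtr1a and Ptger2 are higher at day 7.

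Among 14 receptors for constrictor hormones, 7 were lower (3 with normexp) and 3 were higher (1 with normexp, 1 with only the 6 arrays). Ednra, the endothelin receptor of smooth muscle, read -1.71, -1.82 and -2.09 on the day 7 arrays, against 0.70, 0.93 and 0.70 on the day 0 arrays, with no overlap, and fell by 2.65 ± 0.17 (adjusted p = 6.95e-06). The noradrenaline receptors Adra1a (-2.54 ± 0.36) and Adra1b (-2.06 ± 0.28) fell too. Agtr1a, the main angiotensin II receptor of rat vessels, rose instead: it read 2.72, 2.80 and 2.95 on the day 7 arrays, against 1.68, 1.46 and 1.51 on the day 0 arrays and rose by 1.27 ± 0.21 (adjusted p = 0.00173).  Adra1b (-0.46) and Agtr1a (1.0) lost their calls with normexp.

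Genes of cGMP and cAMP signalling were lower in part, and enzymes that make and that break down cAMP were both among them. Gucy1b1, a subunit of the nitric oxide receptor guanylate cyclase, read -0.17, 0.05 and -0.49 on the day 7 arrays, against 2.64, 3.22 and 3.53 on the day 0 arrays and fell by 3.34 ± 0.27 (adjusted p = 2.3e-05). Irag1, through which cGMP kinase restrains calcium release, Pde3a, which breaks down cAMP, and Adcy5, which makes it, fell (-3.29 ± 0.63, -3.88 ± 0.64 and -4.30 ± 0.81). The endothelial nitric oxide synthase gene Nos3 (-1.18 ± 0.23) was among the 8 of 16 genes of this list that fell. Ptger2, a prostaglandin E2 receptor that raises cAMP, was the exception in size: it read -2.06, -2.35 and -1.33 at day 7 and -6.85, -6.58 and -7.81 at day 0, was not well above background at day 0, and was at least 34.1-fold higher (adjusted p = 9.47e-06). It was one of 2 that rose (5 without replicate 3 of both days). Pde3a (-0.66) lost its call with normexp.

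Small heat shock proteins that guard muscle filaments fell, while the general chaperones did not pass. Hspb6, the relaxation-linked heat shock protein, read -0.54, -0.47 and -0.47 on the day 7 arrays, against 3.41, 4.03 and 2.85 on the day 0 arrays and fell by 3.92 ± 0.34 (adjusted p = 3.56e-05). Hspb7, Cryab (alpha B-crystallin) and Hspb8 fell (-3.88 ± 0.82, -3.75 ± 0.78 and -2.69 ± 0.32). The other 10 of 14 heat shock genes were not called, among them Hspa8 (-0.03 ± 0.22), Hsp90aa1 (-0.35 ± 0.18) and Hspd1 (-0.26 ± 0.17). Hspb7 and Cryab lost their calls with only the 6 arrays.

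Endothelial genes were lower in part. Of 14 receptors, junction proteins and factors of endothelium, 5 were lower and 0 were higher, and 7 were lower without replicate 3 of both days. Esam, an adhesion molecule of endothelial junctions, read 1.55, 1.74 and 1.10 on the day 7 arrays, against 4.66, 4.52 and 4.70 on the day 0 arrays and fell by 3.16 ± 0.27 (adjusted p = 3.16e-05). Emcn, the surface mucin endomucin typical of veins and capillaries, fell by 3.0 ± 0.29, Rasip1, a junction regulator, fell by 2.42 ± 0.33, and Gja5, connexin 40, fell by 2.03 ± 0.41. Cdh5, the endothelial cadherin, overlapped between the groups, at -2.30, -2.53 and -2.38 at day 7 and -2.11, -2.20 and -2.64 at day 0, a change of -0.09 ± 0.25 (adjusted p = 0.829). The angiopoietin receptor gene Tek (-1.56 ± 0.36) fell, and Flt1 (-0.20 ± 0.42) and Erg (-0.25 ± 0.55) did not pass. Tek lost its call with only the 6 arrays.

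On the surface that meets blood, both partners of the protein C pathway fell. Thbd, thrombomodulin, which turns thrombin into an anticoagulant, read 0.22, 0.31 and 0.04 on the day 7 arrays, against 2.75, 2.31 and 1.99 on the day 0 arrays and fell by 2.15 ± 0.23 (adjusted p = 0.000115). Procr, the protein C receptor, read 1.60, 1.65 and 1.41 on the day 7 arrays, against 4.19, 4.32 and 4.12 on the day 0 arrays and fell by 2.66 ± 0.28 (adjusted p = 0.000119). The closest arrays of the groups lay 1.67 units apart in Thbd and 2.47 in Procr. The receptor of urokinase, Plaur, rose by 2.13 ± 0.45. Tissue factor, F3, did not pass at 0.21 ± 0.29 (adjusted p = 0.624). Platelet markers stood beside these: of 4 measured, 2 were called higher (0 without replicate 3 of both days, 1 with the scan as a random block and 1 with normexp), and their summed level ran from 3.78 to 5.87 at day 7, against 3.58 to 4.95 at day 0. Plaur lost its call with only the 6 arrays.

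Genes of innate immune recognition rose broadly. Of 14 pattern recognition and inflammasome genes 11 were higher (6 with only the 6 arrays) and 0 lower, with a median change of 2.68. Clec4e, Mincle, a lectin that senses dead cells and mycobacterial lipid, read 1.78, 0.39 and 3.19 on the day 7 arrays, against -3.29, -4.29 and -5.13 on the day 0 arrays and rose by 6.02 ± 0.62 (adjusted p = 0.000103). Tlr7, the endosomal sensor of single-stranded RNA, read 0.58, -0.06 and 1.42 at day 7 and -2.75, -4.60 and -5.36 at day 0 and rose by 4.88 ± 0.57 (adjusted p = 0.000206). On the day 0 side replicate 1 was the highest of the 3 arrays in both genes. Tlr2, a sensor of bacterial lipoprotein, rose by 4.59 ± 1.08, Il18, an inflammasome cytokine, rose by 4.39 ± 0.68, and Cd14, the coreceptor for endotoxin, rose by 3.34 ± 0.66. Nod1 overlapped between the groups, with a change of -0.47 ± 0.41 (adjusted p = 0.413). Tlr2 and Cd14 lost their calls with only the 6 arrays.

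Phagocyte receptors and the oxidative burst complex had 12 of 15 genes higher, 0 lower and a median change of 4.35. Fcgr3a, a receptor for the tail of antibodies, read 3.0, 3.06 and 2.62 on the day 7 arrays, against -1.69, -3.20 and -4.29 on the day 0 arrays and rose by 5.95 ± 0.53 (adjusted p = 4.34e-05). The oxidase genes Ncf1 and Cybb, a cytosolic organizer and the catalytic core, rose by 5.01 ± 0.67 and 4.37 ± 0.50. Ncf4 (3.88 ± 0.77), Itgb2 (4.82 ± 0.50) and Tyrobp (4.62 ± 0.65) rose as well. The scavenger receptor Cd36 (-0.21 ± 0.23) did not pass. Count and median were 12 and 3.31 without replicate 3 of both days. Ncf4 lost its call with only the 6 arrays.

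Among chemokines 66.7% were higher, against 17.0% of all genes, and 12.5% lower, against 13.9%. Of 24 on the array 16 were higher (8 with only the 6 arrays) and 3 were lower. Those that rose draw monocytes, neutrophils and lymphocytes to inflamed tissue. Ccl9 read 2.58, 2.33 and 3.33 on the day 7 arrays, against -2.06, -2.06 and -3.42 on the day 0 arrays and rose by 5.26 ± 0.40 (adjusted p = 1.64e-05), and Ccl3 read 1.31, 1.03 and 1.34 at day 7 and -1.49, -4.98 and -5.89 at day 0 and rose by 5.34 ± 0.85 (adjusted p = 0.00126). Ccl2, the main monocyte attractant, rose by 3.53 ± 0.65. Ccl20, a ligand of Ccr6, rose by 4.39 ± 0.92, and the stromal chemokine Cxcl12 rose by 2.06 ± 0.45. The 3 that fell were Ccl19, Ccl21 and Cxcl14, of which the first and second guide lymphocytes and dendritic cells through Ccr7. Ccl19 read -0.35, -0.30 and -0.45 on the day 7 arrays, against 4.10, 3.78 and 2.92 on the day 0 arrays and fell by 3.97 ± 0.35 (adjusted p = 3.67e-05), and Ccl21 read 2.09, 2.40 and 1.0 at day 7 and 4.98, 5.91 and 5.61 at day 0 and fell by 3.67 ± 0.54 (adjusted p = 0.000843). Neither overlapped between the groups. Ccl21 is also a lymphatic marker, and of the 5 lymphatic markers 2 were lower, while Flt4 (-0.34 ± 0.32) and Lyve1 (-0.53 ± 0.32) did not pass. Ccl20 and Cxcl12 lost their calls with only the 6 arrays.

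Among chemokine receptors 50% were higher, against 17.0% of all genes, and 12.5% lower, against 13.9%. Of 16 receptors 8 were higher (5 with only the 6 arrays), among them Cx3cr1 (5.93 ± 0.74), Cxcr4 (4.11 ± 0.66), Ccr1 (4.01 ± 0.58) and Ccr2 (3.83 ± 0.46). Cx3cr1, the fractalkine receptor of monocytes, read 0.09, 0.02 and -0.19 at day 7 and -3.96, -5.96 and -7.96 at day 0, with day 0 replicate 1 the highest of its group. Its ligand Cx3cl1 (-0.29 ± 0.69) did not pass. The 2 that fell, Ackr2 (-3.38 ± 0.60) and Ackr3 (-1.74 ± 0.40), are atypical receptors that take up chemokines without classical signalling. Ackr2 (-0.12) lost its call with normexp, and Ackr3 with only the 6 arrays.

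**Figure D3:**
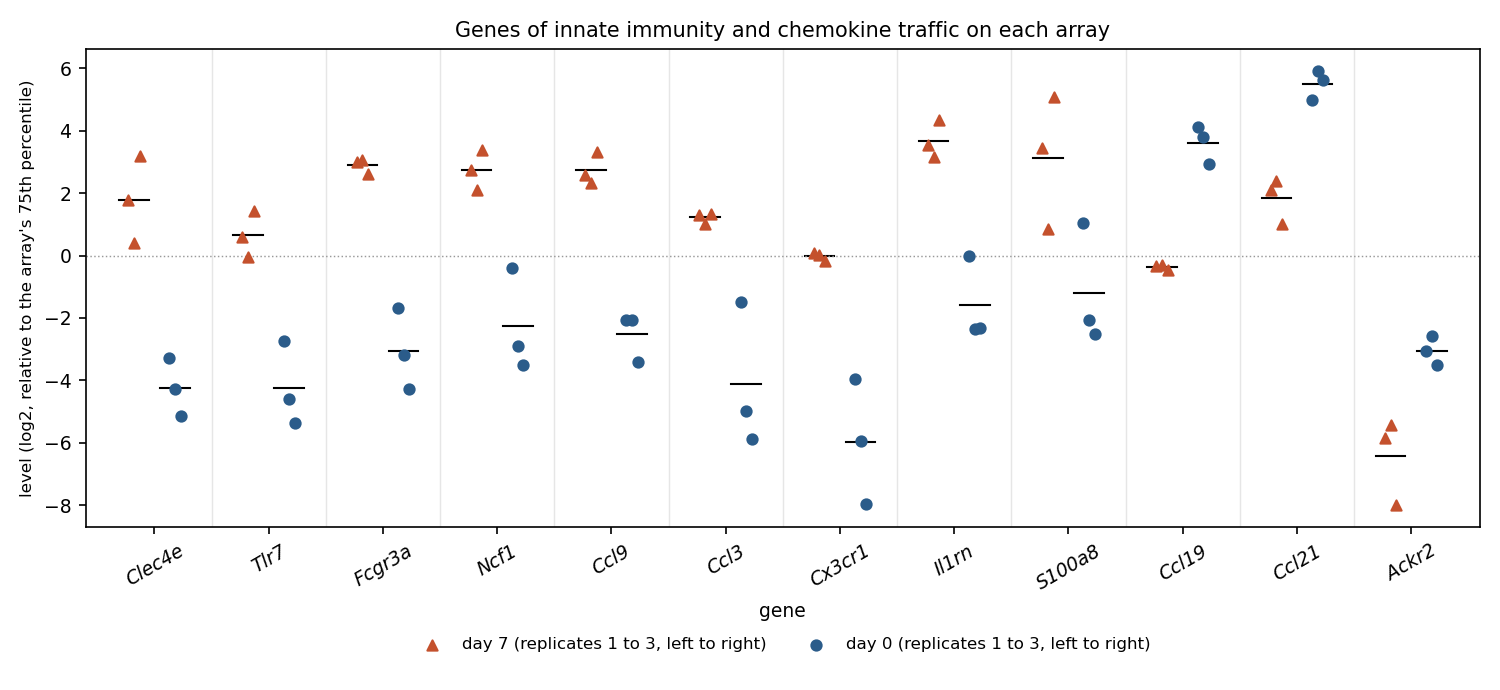
Level of 12 genes of innate immunity and chemokine traffic on each array, day 7 at the left (triangles) and day 0 at the right (circles) of each column, on a log2 scale where 0 is the 75th percentile of the array. Horizontal bars are group means of 3 arrays. Day 0 replicate 1 is the highest day 0 point in Tlr7, Ccl3, Cx3cr1 and Il1rn, and Ccl19, Ccl21 and Ackr2 are lower at day 7.

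Interleukin genes included inhibitors and decoys as well as agonists. Of 29 cytokine and receptor genes 16 were higher (8 with only the 6 arrays) and 2 lower. Il1rn, the natural antagonist of the interleukin-1 receptor, read 3.55, 3.15 and 4.33 on the day 7 arrays, against -0.03, -2.36 and -2.33 on the day 0 arrays and rose by 5.25 ± 0.54 (adjusted p = 0.000101). Il1b itself overlapped, at 2.42, 0.83 and 4.33 at day 7 and 1.13, -1.67 and -1.30 at day 0, although it rose by 3.14 ± 0.85. That call was lost without day 7 replicate 1 or 3 (3.19 and 2.24) or day 0 replicate 2 or 3 (2.61 and 2.80). Il1rl1, the interleukin-33 receptor ST2 that also has a soluble decoy form, rose by 5.63 ± 0.34. Il10ra, which encodes part of the interleukin-10 receptor, had a day 7 level at least 64.4-fold higher (adjusted p = 2.18e-06) than at day 0, whereas Il10 was lower, at -3.11, -3.70 and -2.15 at day 7 and -1.76, -1.78 and -1.40 at day 0, and fell by 1.34 ± 0.35 (adjusted p = 0.0158), a call lost without day 7 replicate 1 (-1.28) or 2 (-0.98). Tnf rose by 4.79 ± 0.77. Il6 was not called (3.72 ± 1.83 (adjusted p = 0.16)), and day 0 replicate 1 read 0.45, against -7.81 and -7.85 on the other day 0 arrays. Il1b (2.81) and Il10 (-0.19) lost their calls with normexp, Il1b and Il10 with only the 6 arrays, and Il1b (1.90) without replicate 3 of both days.

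Of 20 genes of eicosanoid and related lipid signals 9 were higher and 0 lower (3 without replicate 3 of both days). Pla2g7, which degrades platelet-activating factor, read 3.76, 3.37 and 4.03 at day 7 and -0.09, -0.72 and -1.88 at day 0 and rose by 4.62 ± 0.38 (adjusted p = 2.68e-05). Tbxas1, thromboxane synthase, rose by 4.26 ± 0.52, and Alox5ap, which presents arachidonate to 5-lipoxygenase, rose by 3.21 ± 0.53. The inducible cyclooxygenase gene did not pass, with Ptgs2 (1.02 ± 0.42). Of 20 complement genes 10 were higher (6 without replicate 3 of both days, 3 with only the 6 arrays) and 1 lower. Those higher included C2 (3.24 ± 0.61), C3ar1 (3.34 ± 0.45) and C1qb (2.78 ± 0.61). Cd59b, which blocks the membrane attack complex, fell by 3.41 ± 0.37. C1qb lost its call with only the 6 arrays.

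Iron genes were called higher at about the share of all genes, and some arginine genes rose. Of 17 iron and haem genes 3 were higher (1 with normexp), or 17.6% against 17.0% of all genes. In that list 1 was lower, or 5.88% against 13.9%. Of 14 arginine and polyamine genes 5 were higher (3 with normexp, 3 with only the 6 arrays) and 0 lower. Slc11a1, the metal pump of the phagosome, read 3.18, 2.41 and 3.58 at day 7 and -0.84, -1.89 and -3.16 at day 0 and rose by 5.02 ± 0.53 (adjusted p = 0.00011). Slc40a1, the iron exporter ferroportin, rose by 1.80 ± 0.45, and Hamp, the hormone hepcidin that destroys it, fell by 1.13 ± 0.19. Hmox1, haem oxygenase, had a change of 1.78 ± 0.63 (adjusted p = 0.0589), and its day 7 arrays were spread from 1.95 to 4.44. Arg1, arginase 1, rose by 2.84 ± 0.57, and Acod1, the itaconate enzyme, differed widely between the day 7 arrays, at -0.71, -2.75 and 0.88 at day 7 and -7.44, -7.65 and -7.98 at day 0, and was at least 96.7-fold higher. Of 20 lysosomal genes 14 were higher and 0 lower, including Atp6v0d2 (5.24 ± 0.32), Ctss (4.05 ± 0.62), Laptm5 (3.15 ± 0.19) and Ctsk (2.57 ± 0.40), and Ctsl (0.31 ± 0.25) and Lamp2 (0.64 ± 0.31) did not pass. Slc40a1 (1.58) and Hamp (-0.02) lost their calls with normexp, and Slc40a1 (1.30) without replicate 3 of both days.

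Neutrophil genes varied between the day 7 arrays. Of 12 measured 8 were higher (5 without replicate 3 of both days, 5 with the scan as a random block, 5 with normexp, 3 with only the 6 arrays). S100a8, a calcium-binding alarm protein, read 3.45, 0.84 and 5.08 on the day 7 arrays, against 1.03, -2.06 and -2.53 on the day 0 arrays, so that the groups overlapped, and rose by 4.31 ± 1.04 (adjusted p = 0.0115). Mmp8, the neutrophil collagenase, read -0.20, -2.36 and 1.61 at day 7 and -5.14, -6.47 and -5.79 at day 0 and rose by 5.48 ± 0.76 (adjusted p = 0.000581), and Csf3r, the receptor for granulocyte colony-stimulating factor, rose by 4.27 ± 0.64. In all 3 genes replicate 3 was the highest and replicate 2 the lowest of the day 7 arrays. Of 24 T and NK cell genes 16 were higher (6 with normexp, 7 with only the 6 arrays) and 0 lower, with a median change of 1.52. Cd4 rose by 3.73 ± 0.46, Gzmb, granzyme B, rose by 3.53 ± 0.70, and Cd3e rose by 2.44 ± 0.53, while Cd5 (0.23 ± 0.71) and Cd8a (1.72 ± 0.76) did not pass. The B cell gene Cd79b rose by 3.84 ± 0.52. S100a8 and Cd3e lost their calls with only the 6 arrays, S100a8 (2.66) without replicate 3 of both days, and Gzmb (1.61) with normexp.

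Interferon-stimulated genes rose without exception among the calls. Of 22 on the array 16 were higher and 0 lower, and 17 were higher without replicate 3 of both days. Irf7, the master factor of the type I interferon loop, read 5.43, 5.23 and 5.92 on the day 7 arrays, against 1.50, 1.13 and 0.60 on the day 0 arrays. The closest arrays of the groups lay 3.73 units apart, and Irf7 rose by 4.45 ± 0.28 (adjusted p = 6.95e-06). Mx1, a dynamin-like antiviral GTPase, read 1.07, 1.34 and 0.07 at day 7 and -3.53, -2.96 and -4.75 at day 0 and rose by 4.57 ± 0.51 (adjusted p = 0.000151), and Isg15, a ubiquitin-like modifier, read 3.20, 2.78 and 4.03 at day 7 and 0.30, -0.21 and -0.57 at day 0 and rose by 3.50 ± 0.44 (adjusted p = 0.00034). Usp18, which removes Isg15 from proteins, rose by 3.40 ± 0.29, and Ifit3, which binds foreign RNA, rose by 3.48 ± 0.44. The signal carriers upstream were not all called: Stat2 (1.31 ± 0.18) rose, and Irf9 (0.50 ± 0.23) and Irf1 (0.35 ± 0.24) did not pass.

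The interferon-stimulated response element was looked for as GAAANNGAAA on both strands in the 250 bases before the start, in the same RefSeq table. It was found in 3.29% of all 27457 promoters and 3.18% of the 11358 of array genes. Of the 361 array genes with it 84 were higher and 30 lower. Among the interferon list 16 genes had a promoter in the table and 9 of them had the element, of which 8 were higher and the ninth, Ifi27, had a change of -0.32 ± 0.22 (adjusted p = 0.307). Windows around the element are shown for Ifi27 and for 6 genes that rose, with the element in capitals, 5′ to 3′ on the gene's strand. The element in Oas1a runs on into a second, overlapping copy. No statement on binding follows from a match.
Irf7, minus strand, chr1:205800063-205800112: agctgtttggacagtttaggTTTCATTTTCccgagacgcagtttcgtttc
Ifit3, plus strand, chr1:241527262-241527311: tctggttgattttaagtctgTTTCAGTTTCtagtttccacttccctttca
Oas1a, plus strand, chr12:41330405-41330454: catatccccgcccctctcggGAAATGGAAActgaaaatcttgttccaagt
Rsad2, minus strand, chr6:48788238-48788287: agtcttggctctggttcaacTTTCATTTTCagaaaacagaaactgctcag
Ifih1, minus strand, chr3:67683998-67684047: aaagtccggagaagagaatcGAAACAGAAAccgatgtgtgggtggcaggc
Gbp2, plus strand, chr2:234005676-234005725: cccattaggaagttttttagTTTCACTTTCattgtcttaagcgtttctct
Ifi27, plus strand, chr6:128355208-128355257: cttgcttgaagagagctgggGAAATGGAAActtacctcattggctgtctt

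Oas1a, which makes the signal that activates RNase L, and Rsad2, viperin, rose by 3.37 ± 0.36 and 3.13 ± 0.53, and Ifih1 (1.60 ± 0.28) and Gbp2 (1.31 ± 0.31) rose less. Among interferon genes 4 were also higher at day 7 than in the later grafts. Irf7 averaged 1.08 at day 0, 5.53 at day 7, 2.71 at day 14 and 2.31 at day 28. Its day 7 level exceeded the mean of days 14 and 28 by 3.02 ± 0.24 (adjusted p = 0.000701), Isg15 by 2.26 ± 0.38, Oasl, an antiviral protein without the synthase activity of its relatives, by 1.99 ± 0.43 and Ifi44 by 1.31 ± 0.27. The call of Irf7 held without each of the 9 graft arrays in turn, that of Isg15 without 8, with 2.33 and no call without day 7 replicate 1. Those of Oasl and Ifi44 held without 1 and 3 of the 9, with values from 1.53 to 2.50 and from 1.18 to 1.47. Over all 13903 genes 1.53% were called higher and 0.690% lower in that comparison, in which the day 0 arrays enter the estimate of spread but not the difference. Mx1 was not called there. Gbp2 (1.03) lost its call with normexp, and Gbp2 with only the 6 arrays.

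**Figure D4:**
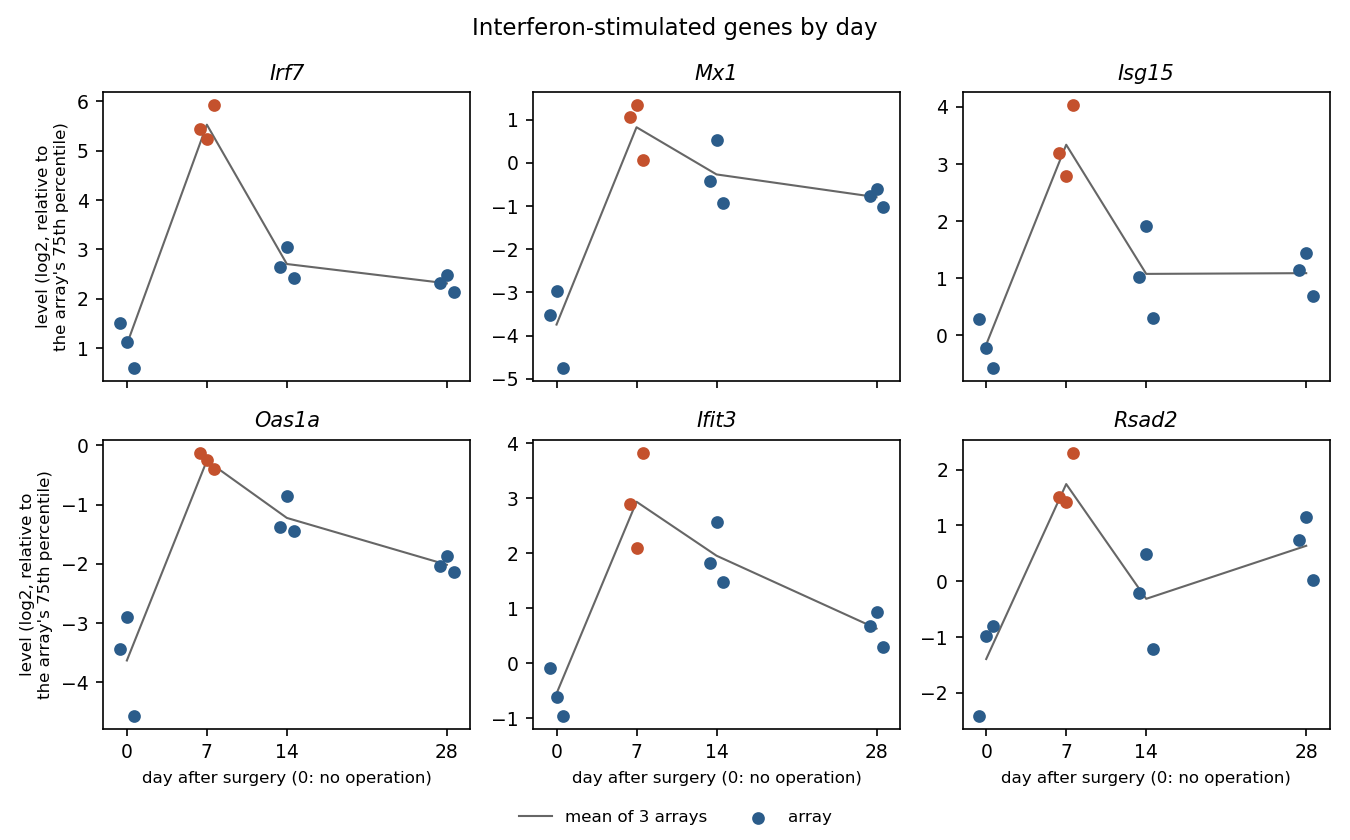
Level of 6 interferon-stimulated genes on each of the 12 arrays by day after surgery (0, 7, 14 and 28), on a log2 scale where 0 is the 75th percentile of the array. Points are arrays (day 7 in orange) and lines join the means of 3 arrays. The mean is highest at day 7 in each gene, and Irf7 reads between 5.23 and 5.92 there.

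Most class II presentation genes rose, and the probe of 1 chain went against its partner. Of 18 genes 13 were higher (7 with only the 6 arrays) and 2 lower. Cd74, the invariant chain, read 4.76, 4.94 and 4.04 on the day 7 arrays, against 1.55, -0.40 and -1.09 on the day 0 arrays and rose by 4.56 ± 0.61 (adjusted p = 0.000457), and Ciita, the master switch of the class II genes, read -0.52, -0.48 and -0.16 at day 7 and -3.43, -4.76 and -4.12 at day 0 and rose by 3.72 ± 0.32 (adjusted p = 3.36e-05). RT1-Ba and RT1-Da, which encode alpha chains, rose by 3.80 ± 0.75 and 3.72 ± 0.61, and the costimulatory ligand Cd86 was at least 28.3-fold higher. RT1-Bb, the partner chain of RT1-Ba, was not well above background on any day 7 array, at -7.61, -8.98 and -8.05 at day 7 and 2.48, 0.55 and -0.31 at day 0. Its bound was at least 384-fold lower, and the call was lost without day 7 replicate 1 (-9.42) or 2 (-8.74) or day 0 replicate 1 (-8.33) or 2 (-9.29). The same probe read 5.69, 5.23 and 5.97 at day 14 and 2.62, -8.72 and 3.94 at day 28, where replicate 2 was as low as the day 7 arrays. RT1-Ba lost its call with only the 6 arrays, RT1-Bb (-3.51) with normexp, RT1-Bb (-8.81) with array weights, and RT1-Bb (-9.81) without replicate 3 of both days.

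Collagen and its modifying enzymes rose. Of 19 genes 13 were higher (8 with normexp, 7 with only the 6 arrays) and 0 lower. Col5a1, which starts collagen fibrils, read 4.91, 5.0 and 4.30 on the day 7 arrays, against 1.52, 1.39 and 0.52 on the day 0 arrays and rose by 3.59 ± 0.28 (adjusted p = 2.1e-05). P4ha3 and Plod2, which hydroxylate proline and lysine in collagen, rose by 4.02 ± 0.37 and 3.46 ± 0.38, and Cthrc1, a secreted protein of injured arteries, rose by 4.32 ± 0.74. Col1a2, a chain of type I collagen, rose by 1.28 ± 0.19. Ltbp2, which binds fibrillin microfibrils, read 4.24, 4.61 and 0.53 at day 7 and -1.33, -2.17 and -3.49 at day 0: replicate 3 lay well below the other day 7 arrays, and Ltbp2 rose by 5.46 ± 0.94. Eln, elastin, was not called at -0.70 ± 1.28 (adjusted p = 0.72), and on replicate 3 it read 1.01, against 6.57 and 6.92 on the other day 7 arrays.

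Several proteases rose and 1 inhibitor fell. Of 22 genes 11 were higher (7 with only the 6 arrays) and 1 lower, and those higher included Mmp3 (4.50 ± 0.59), Mmp14 (2.79 ± 0.41) and Mmp2 (2.08 ± 0.50), and Mmp13, interstitial collagenase, was at least 51.0-fold higher. Timp3, the inhibitor that stays bound to matrix, read 1.98, 2.21 and 1.15 on the day 7 arrays, against 4.23, 4.37 and 4.59 on the day 0 arrays and fell by 2.62 ± 0.28 (adjusted p = 0.000115). Timp1 (0.18 ± 0.42) and Timp2 (0.20 ± 0.22) did not pass. Hyaluronan genes were mixed: Has1, a synthase, fell by 2.94 ± 0.42, and Cd44, the receptor, rose by 1.50 ± 0.26. Sparcl1, an antiadhesive matrix protein, fell by 3.22 ± 0.36, and Fn1, fibronectin, rose by 1.58 ± 0.32. Mmp2 (1.84) and Cd44 (1.26) lost their calls with normexp, and Mmp2 and Fn1 with only the 6 arrays.

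Among genes of bone morphogenetic protein and TGF-beta signalling 30% were lower, against 13.9% of all genes, and 16.7% higher, against 17.0%. Id4, an inhibitor of helix-loop-helix factors that bone morphogenetic protein induces, read -0.50, -0.32 and -2.19 on the day 7 arrays, against 4.28, 4.71 and 4.13 on the day 0 arrays and fell by 5.38 ± 0.47 (adjusted p = 3.77e-05). Id1 and Id2 fell (-1.45 ± 0.38 and -1.45 ± 0.32), and Id3 (-0.11 ± 0.47) did not pass. The call of Id1 was lost without day 7 replicate 1 (-1.28) or 2 (-1.14). Bmp4 and Gdf10, both ligands, fell (-3.36 ± 0.64 and -3.38 ± 0.64), and Chrdl1, an antagonist, fell by 4.21 ± 0.88. Tgfb1 read 0.37, 0.24 and 0.39 at day 7 and -1.79, -2.57 and -3.53 at day 0 and rose by 2.97 ± 0.36 (adjusted p = 0.000251), and its type I receptor Tgfbr1 read 3.30, 3.34 and 3.45 at day 7 and 1.22, 0.75 and 0.97 at day 0 and rose by 2.38 ± 0.18 (adjusted p = 1.79e-05). Both were tight within day 7. Bmpr1b, a receptor of bone morphogenetic protein, was at least 10.7-fold higher, and Inhba, the subunit of activin A, fell by 2.20 ± 0.59, with no call without day 0 replicate 2 (-2.09) or 3 (-1.90). Of 30 genes in the list 5 were higher (2 with normexp, 3 with only the 6 arrays) and 9 lower (4 with only the 6 arrays), and the Smad genes Smad6 (-0.69 ± 0.33), Smad7 (-0.21 ± 0.24) and Smad3 (-0.45 ± 0.42) did not pass. Id1, Id2, Chrdl1 and Inhba lost their calls with only the 6 arrays, and Gdf10 (-1.80) and Bmpr1b (1.41) with normexp.

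Of 25 Wnt genes 7 were higher, or 28% against 17.0% of all genes, and 3 were lower, or 12% against 13.9%. Secreted antagonists were among both. The 7 became 11 without replicate 3 of both days and 4 with the scan as a random block. They became 2 with normexp and 1 with only the 6 arrays, and the 3 became 0 with normexp. Sfrp4, a secreted Wnt binder, rose by 2.99 ± 0.63, and Axin2, which Wnt signalling induces, read -2.08, -2.34 and -2.0 on the day 7 arrays, against -0.84, -0.20 and -0.35 on the day 0 arrays and fell by 1.68 ± 0.24 (adjusted p = 0.000612). Wnt5a, a ligand of the noncanonical branch, rose by 1.57 ± 0.37, and Fzd4, a receptor of endothelium, fell by 2.62 ± 0.45. Among growth factors of the receptor tyrosine kinase families 6 of 32 were higher (2 with normexp, 2 with only the 6 arrays) and 8 lower (1 with normexp, 3 with only the 6 arrays). Fgf2, a mitogen of smooth muscle, fell by 2.56 ± 0.28, its receptor Fgfr1 rose by 1.99 ± 0.39, and Vegfd, a lymphatic growth factor, rose by 4.39 ± 0.56. Vegfa (-0.19 ± 0.34), Pdgfa (0.22 ± 0.55) and Hbegf (0.17 ± 0.32) did not pass. Igfbp5, a binding protein of insulin-like growth factor, fell by 2.80 ± 0.30, and Notch3, the Notch receptor of vascular muscle, fell by 1.67 ± 0.27. Sfrp4 and Fgfr1 lost their calls with only the 6 arrays, and Axin2 (-0.85), Wnt5a (1.34), Fzd4 (-0.22), Fgf2 (-1.03) and Igfbp5 (-1.23) with normexp.

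Immediate-early genes, which answer stretch and injury within minutes to hours, gave few calls. Of 22 on the array 2 were higher and 0 lower, and the median change was -0.15. Fosl1, a late member of the Fos family, read -3.40, -3.56 and -2.76 on the day 7 arrays, against -5.45, -7.51 and -6.63 on the day 0 arrays and rose by 3.29 ± 0.55 (adjusted p = 0.00174). Dusp6, the phosphatase that turns off the kinase Erk, rose by 2.16 ± 0.54. Fos overlapped between the groups, at 2.28, 1.76 and 2.70 at day 7 and 3.84, 2.21 and 1.75 at day 0, and so did Egr1. Of 14 clock genes 1 was higher and 2 were lower, including Bhlhe40 (1.51 ± 0.33) and Per2 (-1.55 ± 0.33). The labels give no time of day for the sampling. Fosl1 (1.58) lost its call with normexp, and Dusp6 and Bhlhe40 with only the 6 arrays.

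Some genes of S phase and of mitosis rose, and so did inhibitors of the cycle. Of 19 replication genes 11 were higher (5 without replicate 3 of both days, 6 with normexp, 2 with only the 6 arrays) and 0 lower. Rrm2, the regulated subunit that supplies deoxynucleotides, read 1.13, 0.99 and 1.65 on the day 7 arrays, against 0.19, -2.55 and -2.77 on the day 0 arrays and rose by 2.97 ± 0.62 (adjusted p = 0.00571). Mcm10, which starts replication forks, rose by 2.38 ± 0.33, and Pcna did not pass at -0.50 ± 0.23 (adjusted p = 0.136). Of 18 mitosis genes 9 were higher (5 with only the 6 arrays) and 1 lower, with Ccna2 (3.22 ± 0.60), Cenpa (3.17 ± 0.57) and Kif20a (2.97 ± 0.47). Cdkn1a and Cdkn1c, inhibitors of cyclin-dependent kinases, rose by 2.36 ± 0.56 and 2.73 ± 0.65, and Gadd45b, a stress-induced growth arrest gene, rose by 3.28 ± 0.43. In Rrm2, Ccna2, Cenpa and Cdkn1a day 0 replicate 1 was the highest day 0 array, at 0.19, -2.57, -3.18 and 3.19. Ccnd2, cyclin D2, fell by 2.13 ± 0.35. Bcl2a1, a survival protein of blood cells, rose by 4.74 ± 0.57. Rrm2, Cdkn1a and Cdkn1c lost their calls with only the 6 arrays.

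Genes of fat oxidation and of the mitochondrial chain were lower in part, and the hexokinase genes Hk2 and Hk3 were higher. Pdk4, which diverts pyruvate from the citrate cycle, read -6.31, -5.70 and -7.30 on the day 7 arrays, against -3.09, -1.51 and -1.73 on the day 0 arrays and fell by 4.33 ± 0.47 (adjusted p = 0.000133). Acadm, a dehydrogenase of medium-chain fatty acids, fell by 1.83 ± 0.22. Of 21 genes of fat oxidation 10 were lower (5 with normexp, 6 with only the 6 arrays) and 1 higher. Of 26 genes of the citrate cycle and respiratory chain 10 were lower (6 with normexp, 1 with only the 6 arrays) and 1 higher (median -0.51), as Ndufb8 (-1.36 ± 0.19) and Idh2 (-1.19 ± 0.23) show. Of 26 glycolysis and hypoxia genes 7 were higher (4 without replicate 3 of both days, 3 with normexp, 2 with only the 6 arrays). Another 4 were lower (2 with normexp), and the median change of that list was -0.005. Hk3, the hexokinase of blood cells, and Hk2, the inducible one, rose by 4.23 ± 0.45 and 3.17 ± 0.52, while Pfkp fell by 3.96 ± 0.35. Fat cell markers fell beside these genes, and their part in the fall was not tested. Pdk4 (-0.77) lost its call with normexp, and Idh2 with only the 6 arrays.

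Several gene families held members that moved in opposite directions. Among background potassium channels the acid-sensitive Kcnk3 read -0.50, -0.63 and -0.44 on the day 7 arrays, against 1.68, 1.89 and 2.0 on the day 0 arrays and fell by 2.38 ± 0.21 (adjusted p = 3.48e-05), whereas the stretch-sensitive Kcnk2 read 1.53, 1.95 and -1.19 at day 7 and -4.25, -3.83 and -4.44 at day 0 and rose by 4.94 ± 0.70 (adjusted p = 0.000636). On day 7 replicate 3 Kcnk2 lay below the other day 7 arrays. The calcium-activated Kcnn4, a channel of leukocytes and dividing smooth muscle, rose by 2.06 ± 0.29. Of the connexins Gja5 fell, as given above, and Gja1, connexin 43, rose by 2.15 ± 0.50. In the proteasome the constitutive subunit Psmb5 read 4.12, 4.16 and 4.30 on the day 7 arrays, against 5.05, 5.18 and 4.92 on the day 0 arrays and fell by 0.86 ± 0.16 (adjusted p = 0.00357), while its counterpart of the inducible immunoproteasome family Psmb8 read 4.27, 3.95 and 4.70 at day 7 and 3.79, 2.21 and 1.73 at day 0 and rose by 1.73 ± 0.43 (adjusted p = 0.0134). Psmb8 replaces Psmb5 in the inducible particle. Of 21 proteasome and ubiquitin genes 2 were higher, or 9.52% against 17.0% of all genes. In that list 3 were lower (0 with only the 6 arrays), or 14.3% against 13.9%. Psmb10 and Psme2 of the same list were not called. Gja1 (1.90) and Psmb8 (1.47) lost their calls with normexp, Gja1, Psmb5 and Psmb8 with only the 6 arrays, Gja1 (1.61) and Psmb8 (1.11) without replicate 3 of both days, Psmb5 (-0.56) with quantile scaling, and Psmb5 (-0.57) by the authors' deposited values.

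Integrins divided between leukocyte and tissue subunits. Of 14 measured 6 were higher and 3 lower. Itga4, which binds vascular cell adhesion molecule 1, read 0.89, 0.96 and 0.60 on the day 7 arrays, against -2.68, -3.87 and -4.02 on the day 0 arrays and rose by 4.34 ± 0.31 (adjusted p = 1.3e-05). Itga1, which binds collagen, and Itga7, the laminin receptor of muscle, fell (-2.57 ± 0.56 and -2.54 ± 0.42). Itgb4, the laminin receptor of hemidesmosomes, fell by 3.55 ± 0.62. The laminin chain Lama3 (-2.06 ± 0.37) fell as well. Itga1 lost its call with only the 6 arrays.

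Lipid handling genes of macrophages rose, with 11 of 19 higher and 1 lower. Gpnmb, a membrane protein of lipid-laden macrophages, read 6.84, 6.78 and 7.51 on the day 7 arrays, against 3.35, 1.95 and 4.72 on the day 0 arrays and rose by 3.70 ± 0.54 (adjusted p = 0.000799). Apoc1 and Apoe, apolipoproteins, rose by 5.88 ± 0.62 and 2.22 ± 0.34, and Soat1, which esterifies cholesterol for storage, rose by 3.41 ± 0.29. The gene that fell, Fabp4, is also a fat cell gene, and fell by 1.98 ± 0.25. Of 18 genes of apoptosis and necroptosis 10 were higher (5 with normexp, 6 with only the 6 arrays) and 3 lower (1 with normexp, 0 with only the 6 arrays). Those that rose included the death receptor protease Casp8 (1.86 ± 0.22), its substrate Bid (1.96 ± 0.30) and the necroptosis kinase Ripk3 (2.07 ± 0.36), and against death Birc3 (2.10 ± 0.32). The death-promoting Bik (-1.35 ± 0.45), the caspase Casp12 (-0.90 ± 0.19) and the survival gene Bcl2 (-0.66 ± 0.18) fell. The call of Bcl2 was lost without day 0 replicate 2 (-0.56), and that of Bik without day 7 replicate 1, 2 or 3 (-1.41, -1.26 and -1.38) or day 0 replicate 1 or 2 (-0.81 and -1.32). Bik (-0.01) and Bcl2 (0.04) lost their calls with normexp, Bik (-1.28) with the scan as a random block, and Bik, Casp12 and Bcl2 with only the 6 arrays.

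Among bone and cartilage genes 5 of 14 were higher (2 with normexp) and 0 lower, and among them were genes that hold mineral back. Enpp1, which makes the mineral inhibitor pyrophosphate, read 2.16, 2.23 and 1.15 on the day 7 arrays, against -0.08, -0.32 and -1.69 on the day 0 arrays and rose by 2.55 ± 0.47 (adjusted p = 0.00278). Ankh, which releases it from cells, rose by 2.15 ± 0.33. Tnfsf11, the factor that forms osteoclasts, was at least 6.20-fold higher. In Enpp1 and Ankh replicate 3 was the lowest day 7 array. Tnfsf11 (1.28) lost its call with normexp.

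Of 26 antioxidant genes 6 were higher (3 with normexp, 1 with only the 6 arrays) and 3 lower (7 without replicate 3 of both days). The cytosolic superoxide dismutase Sod1 fell by 1.37 ± 0.22, and Gsr, which regenerates glutathione, rose by 1.10 ± 0.25. Of 18 cytochrome P450 genes 6 were lower (1 with normexp, 3 with only the 6 arrays) and 1 higher. For Cyp4a3, which hydroxylates fatty acids, the bound was at least 129.8-fold lower. Cyp4b1 read -2.84, -2.78 and -2.80 on the day 7 arrays, against 1.08, 1.39 and 1.63 on the day 0 arrays and fell by 4.17 ± 0.31 (adjusted p = 1.49e-05). In sterol synthesis 6 of 17 were higher (3 with the scan as a random block, 0 with normexp, 0 with only the 6 arrays), with Lss (1.07 ± 0.20), and 2 were lower, with Fdft1 (-1.52 ± 0.31). Of transporters for amino acids and osmolytes 9 of 19 were higher (5 with only the 6 arrays) and 4 lower (1 with normexp, 0 with only the 6 arrays), and those higher included the taurine carrier Slc6a6 (2.98 ± 0.32) and the leucine carrier Slc7a5 (1.10 ± 0.20). Gsr, Lss and Fdft1 lost their calls with only the 6 arrays, and Cyp4a3 (-2.17), Lss (0.84) and Slc7a5 with normexp.

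Of 22 ribosomal protein genes 7 were lower (4 with the scan as a random block, 3 with normexp, 0 with only the 6 arrays) and 1 higher, and normexp moved the median of all probes to 0.605, against -0.11 here. The median change of the ribosomal protein genes was -0.15. In the unfolded protein response 9 of 22 were higher (4 with normexp, 2 with only the 6 arrays), among them Trib3, a pseudokinase of the stress response, which rose by 3.37 ± 0.36, and Calr, calreticulin, which rose by 1.74 ± 0.27. Hspa5 (0.26 ± 0.26), Xbp1 (-0.50 ± 0.58) and Ddit3 (0.49 ± 0.25) did not pass. Of 28 genes of nuclear receptors and hormone metabolism 22 were not called. In that list 2 were higher, or 7.14% against 17.0% of all genes. Another 4 were lower (2 with normexp, 2 with only the 6 arrays), or 14.3% against 13.9%. Dio3, which inactivates thyroid hormone, read 1.30, 1.59 and 0.41 at day 7 and -4.59, -6.81 and -5.30 at day 0. It rose by 6.67 ± 0.52, and Hsd11b1, which regenerates glucocorticoid, rose by 2.79 ± 0.38. Nr2f2, the factor of venous identity also known as COUP-TFII, read -0.11, 0.18 and -0.82 on the day 7 arrays, against 1.86, 2.34 and 2.55 on the day 0 arrays and fell by 2.50 ± 0.27 (adjusted p = 0.00012). Nr3c2, the mineralocorticoid receptor, fell by 2.29 ± 0.45. Nr3c2 (-0.90) lost its call with normexp.

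Nerve genes moved in both directions. Ntf3, neurotrophin 3, a survival factor for sympathetic nerve that vessels make, read -6.18, -5.45 and -8.05 on the day 7 arrays, against 0.24, 1.01 and 0.71 on the day 0 arrays and fell by 7.21 ± 0.69 (adjusted p = 6.83e-05). Prph, peripherin, the filament of peripheral neurons, read -2.25, -2.21 and -2.43 at day 7 and 0.24, 0.78 and 0.57 at day 0 and fell by 2.83 ± 0.20 (adjusted p = 1.04e-05), and Slc6a2, the noradrenaline transporter of sympathetic endings, fell by 2.57 ± 0.50. Th, the enzyme that starts noradrenaline synthesis, rose by 1.29 ± 0.32, or by 1.13 with no call without day 7 replicate 1. Nefl, the light neurofilament, was at least 60.4-fold higher (adjusted p = 8.86e-05), at -0.91, -0.49 and -3.35 at day 7 and -7.71, -8.25 and -7.49 at day 0. Ncam1, the neural cell adhesion molecule, rose by 5.44 ± 0.38. Among Schwann cell and myelin genes 2 of 19 were higher and 1 lower, and S100b (0.11 ± 0.68) did not pass. Axon guidance genes divided evenly, 6 higher (1 with normexp) and 6 lower of 24: the netrin Ntn1 and the plexin Plxnb1 fell (-3.81 ± 0.80 and -3.97 ± 0.36), and the semaphorin Sema7a rose by 4.17 ± 0.62. Slc6a2 (-0.46), Ntn1 (-0.72) and Sema7a (1.62) lost their calls with normexp, Slc6a2 (-2.73) with array weights, and Th with only the 6 arrays.

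Genes of central neurons were among those that set day 7 apart from the later grafts. A textbook list of 40 genes of brain neurons was written after their values were seen, and its counts are no test. Of 34 on the array 22 were higher (7 with normexp, 14 with only the 6 arrays) and 2 lower against day 0, and 20 were higher and 1 lower than at days 14 and 28. Gabra6, a receptor subunit of cerebellar granule cells, read -2.43, -1.95 and -5.26 at day 7 and -7.74, -8.24 and -7.79 at day 0, and Neurod1, a factor of neuronal differentiation, read -2.44, -2.05 and -4.44 at day 7 and -7.62, -7.44 and -7.87 at day 0. Both were below background on every day 0 array, and were at least 19.9-fold higher and at least 21.2-fold higher. Gad1, which makes the transmitter GABA, read -0.62, -0.14 and -2.81 at day 7 and -4.71, -4.55 and -4.30 at day 0. In all 3 genes replicate 3 was the lowest of the day 7 arrays. The list's summed level ran from 3.12 to 3.78 at day 7, against 2.69 to 5.03 at day 0, so that the groups' sums overlapped. These sums include 1 gene that was over 4-fold brighter on replicate 3 of both days. Of 15 brain glia genes 2 were higher and 0 lower, and the defining marker Gfap (-0.26 ± 0.95) did not pass. Day 14 replicate 1, scanned with the day 7 arrays, read -8.74 for Gabra6. The part of nerve tissue in these values was not tested. Gabra6 (1.70) and Neurod1 (1.64) lost their calls with normexp.

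**Figure D5:**
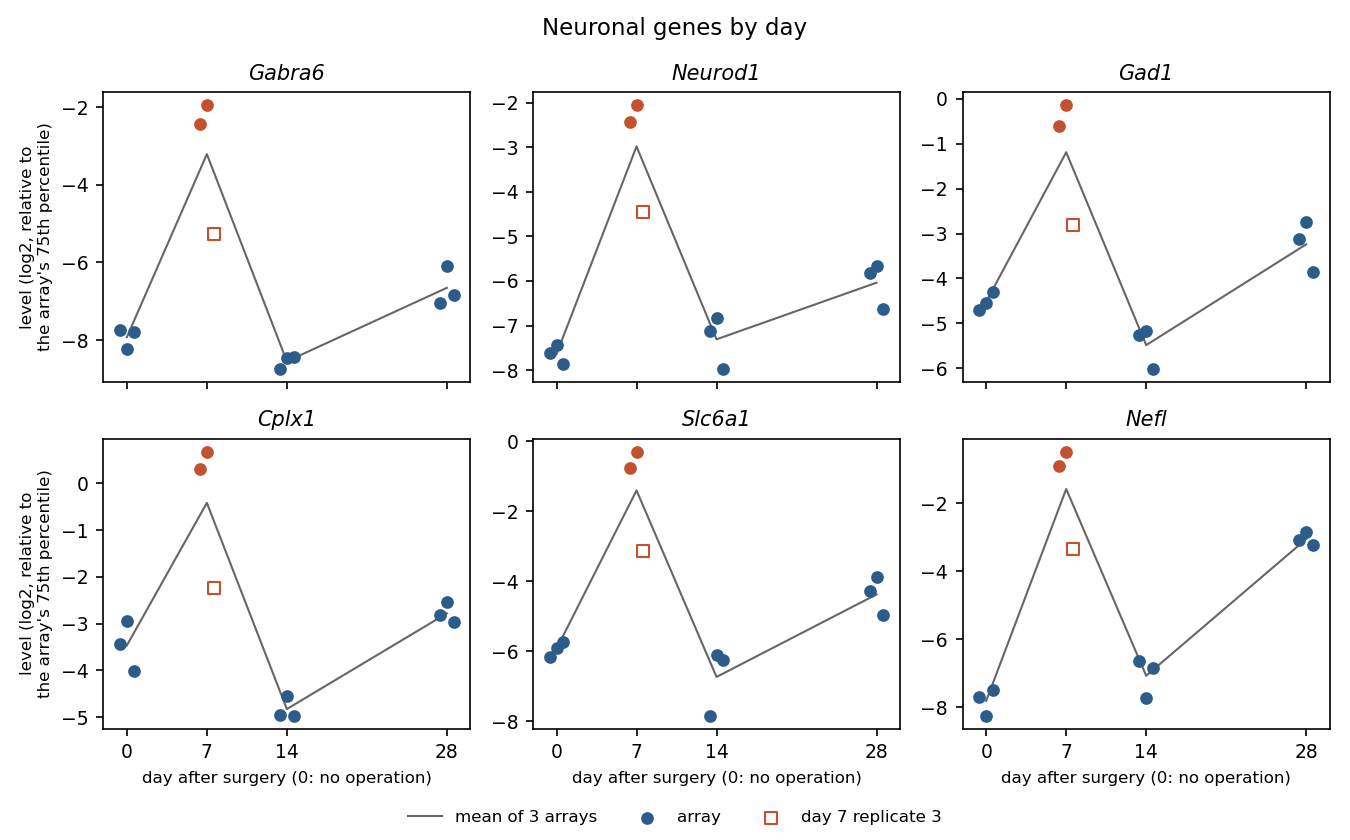
Level of 6 neuronal genes on each of the 12 arrays by day after surgery (0, 7, 14 and 28), on a log2 scale where 0 is the 75th percentile of the array. Points are arrays (day 7 in orange), with replicate 3 of day 7 drawn as an open square, and lines join the means of 3 arrays. The day 7 mean is highest in all 6 genes and replicate 3 is the lowest day 7 point.

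Against the mean of the day 14 and day 28 grafts, 515 probes (2.09%) were called at day 7, 357 higher and 158 lower, and 3484 had an unadjusted p under 0.05. The count fell to 60 without day 7 replicate 1, 218 without day 7 replicate 2, 260 and 256 without day 14 replicates 1 and 3, and 227 and 280 without day 28 replicates 1 and 3. By the authors' deposited values the calls were 54.5% higher, and after scaling to the median 59.3%, against 69.3% with the scaling used here. Among genes above background on all 9 graft arrays, those highest at day 7 included Cplx1, which clamps vesicle fusion, by 3.39 ± 0.54 (adjusted p = 0.0119), Gad1 by 3.17 ± 0.51 and Sik1, a salt-inducible kinase, by 3.39 ± 0.55. The calls of these 3 genes were lost without day 7 replicate 1, at 3.02, 2.88 and 3.01, and without day 7 replicate 2, at 2.84, 2.65 and 2.82. Cplx1 averaged -3.47 at day 0, -0.42 at day 7, -4.83 at day 14 and -2.78 at day 28. Those lowest at day 7 included Alb, albumin, by -3.90 ± 0.46 (adjusted p = 0.00339), and Xirp2, a muscle protein of cell junctions, by -2.78 ± 0.42. Alb averaged -2.17 at day 0, -4.79 at day 7, 2.94 at day 14 and -4.72 at day 28, and its call held without each of the 9 graft arrays. The endothelin receptor gene Ednra was lower by -0.93 ± 0.14. The calls of Xirp2 and Ednra were lost without day 7 replicate 1, at -2.91 and -1.01. The 6 skeletal muscle markers had a median difference of -3.14 in this comparison, with 0 called higher and 0 lower. Their lowest sums were 3.63 (day 7), 3.89 (day 14) and 5.15 (day 28), and their highest 3.69, 5.84 and 9.03. The part of skeletal muscle tissue in the difference of Xirp2 was not tested.

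Among genes above background on all 6 arrays, the largest rises held further receptors of myeloid and lymphoid cells that no paragraph above has given. Slamf9 rose by 6.14 ± 0.74 (adjusted p = 0.000246), Lilrb4, an inhibitory receptor, rose by 5.65 ± 0.72 (adjusted p = 0.000345), Cd300lf, a lipid-binding inhibitory receptor, rose by 5.45 ± 0.36 (adjusted p = 8.74e-06), and Cd37, a tetraspanin of B cells and other leukocytes, rose by 5.54 ± 0.68 (adjusted p = 0.000278). A2m, the broad protease inhibitor alpha-2-macroglobulin, rose by 5.84 ± 0.54 (adjusted p = 5.24e-05). The largest falls held the neuropeptide receptors Tacr3, for neurokinin B, and Npy1r, for neuropeptide Y. Npy1r read -2.09, -1.99 and -2.04 on the day 7 arrays, against 2.96, 3.22 and 2.96 on the day 0 arrays and fell by 5.08 ± 0.24 (adjusted p = 1.28e-06). Tacr3 fell by 6.22 ± 0.24 (adjusted p = 8.42e-07). Slc2a4, the insulin-responsive glucose transporter of muscle and fat, fell by 5.83 ± 0.54 (adjusted p = 5.23e-05), while Slc2a1, the transporter of most dividing cells, rose by 0.79 ± 0.21 (adjusted p = 0.0185). Slc2a1 (0.59) lost its call with normexp, Slc2a1 with only the 6 arrays, and Slc2a1 (0.63) without replicate 3 of both days.

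Probes were also counted by the kind of record they come from. Of 15323 coding probes 30.9% were called, 2592 higher and 2145 lower. Of 4407 transcripts inferred from mouse orthologs 22.0% were called, 356 higher and 614 lower, and of 1702 predicted non-coding RefSeq records 20.5%, 216 higher and 133 lower. Of 962 ultraconserved regions 14.9% were called, 49 higher and 94 lower, and 66.4% passed background on 1 or more of the 6 arrays, against 91.3% of coding probes. These classes differ in brightness, and no test was made between them.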

How the data were processed

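Intensity per spot came from the authors' scanner files, made with Agilent Feature Extraction 11.0.1.1 in 1 colour per the file headers. The deposited processed intensity is background corrected. It was put on a log2 scale minus each array's 75th percentile over gene spots. Control spots were left out, as were 7348 gene spots flagged as outliers over the 12 arrays, and the 42136 gene spots per array were averaged into 24684 probes. The flags deposited beside them are of another kind, 0 or 1, and served for background and uniformity. Of the probes, 14294 carry 1 symbol and 10390 none. The brightest of several probes stood for a gene. The 12 arrays were fitted together in limma 3.58.1 (R 4.3.3), with Benjamini-Hochberg adjustment. On simulated data with 24272 probes it recovered 80 of 100 probes changed by 3 log2 units and 44 of 100 changed by 1.5. All other simulated probes were left unchanged, whereas 27.6% of probes were called in the data. The recovery therefore does not give the share found in this comparison. The number of arrays limits the precision. The deposited log2 table, normalized by the authors with a step not given in the sources used here, was an alternative, as were normexp (on median signals), quantile and median scaling, dim-probe filters, outliers kept, the scan as a block, array weights and fewer arrays. List genes named were those given with a value, up to 5 per direction by size first. The genes and lists were chosen with earlier results of these data known.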

Additional observations from a re-analysis of the deposited data

Results flagged for a closer look

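A group of 3 arrays has no outlier test. Of the genes named above, 19 differed by limma's test between their change at day 7 and their mean change at days 14 and 28, which is the difference between the graft days. The day 0 arrays enter only the estimate of spread. The difference was positive in Gabra6 (4.39), Neurod1 (3.70), Nefl (3.48), Cplx1 (3.39), Sik1 (3.39), Gad1 (3.17), Irf7 (3.02), Isg15 (2.26), Oasl (1.99) and Ifi44 (1.31), all higher at day 7 than the later mean. It was negative in RT1-Bb (-10.67), Alb (-3.90), Cyp4a3 (-1.95), Cyp4b1 (-1.36), Xirp2 (-2.78), Timp3 (-1.13), Npy1r (-1.07), Abcc9 (-1.06) and Ednra (-0.93), all lower at day 7 than the later mean. Alb averaged -2.17 at day 0, -4.79 at day 7, 2.94 at day 14 and -4.72 at day 28, so that day 7 and day 28 were level. RT1-Bb read -8.72 on day 28 replicate 2, as low as at day 7. RT1-Bb at day 7, Cyp4a3 at days 7 and 28, and Gabra6 and Neurod1 at day 14, did not rise well above background on those days, so their fitted differences are no measured folds. The calls of Irf7 and Alb held without each of the 9 graft arrays, and that of Timp3 without 0 of them (-1.35 to -0.82). Without day 7 replicate 1 the calls of all genes named here but Irf7 and Alb were lost.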

How the results depend on the processing

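Of the 232 called genes named, all with a value kept their direction under each of the 18 alternatives to the day 7 against day 0 comparison, except Bcl2 with normexp (0.0416, against -0.66). Normexp ended 42 other calls, only the 6 compared arrays 49 and the scan as a fixed block 223. The 6823 probes called became 2634 with normexp, 2654 with only the compared arrays, 47 with the scan as a fixed block and 41 with the lone fourth-scan array joined to the third scan. They ranged from 4759 to 7742 without 1 array. Normexp moved the median of all probes to 0.605, against -0.11 here. Against days 14 and 28, 515 probes became 27 with normexp (all higher), 302 with the scan as a random block, 935 with only the compared arrays, 11305 with array weights and 1209 without replicate 3 of days 7 and 0, and from 60 to 736 without 1 array. Limma called 0 with the scan as a fixed block in either form (948 and 760 with an unadjusted p under 0.05). Normexp also turned Cyp4a3 there (0.65, against -1.95). The causes were not tested. Of 33 list medians over 1 in size, normexp turned the sign of 1 (mast cell markers, 0.09 against -1.05) and no other alternative did. Day 7 and day 0 share no scan and the labels give no RNA quality, so scan and group are linked only through other days. No paired analysis was possible because every label carries the same replicate number.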
